A study of Mus musculus with 8 samples.

Results

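The 141 genes described here are the abundant long intergenic noncoding RNAs (lincRNAs) of the rd10 mouse retina. They were chosen by the biotype lincRNA in the deposited gene table, a position outside chromosomes X and Y, and a mean count of at least 100 over 8 libraries. The table held 54532 genes, of which 17725 passed the filter on low counts and were tested, and 5559 were lincRNAs. All 141 members passed that filter. The 8 libraries came from the retina of rd10 mice, in which a mutation of the rod phosphodiesterase gene Pde6b leads to loss of rods and later of cones. The series compared 4 libraries labelled sIVs, which the series title expands to small intracellular vesicles, with 4 control libraries titled PBS, read here as phosphate-buffered saline. Both groups carry the rd10 genotype, so no healthy retina enters the comparison. Age, sex, vesicle source, route, dose and time of sampling are not given in the sources used here. Nor is it stated how many animals made up a library, and all p-values therefore rest on the spread among the libraries, which may be technical.

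The libraries held 14640235 to 16989737 counts. The members took 0.881%, 0.942%, 0.887% and 0.867% of the counts in PBS libraries 1 to 4 and 0.916%, 0.861%, 0.794% and 0.878% in sIVs libraries 2 to 5, and the groups overlapped (exact two-sided permutation p = 0.343). The 4 members of highest count, Malat1, Meg3, Mir124a-1hg and Mir124-2hg, made up 58.5% to 61.7% of the members' counts in every library. Rod markers, 25 genes of phototransduction and the outer segment, summed to 49071, 45923, 50098 and 53669.9 CPM in PBS libraries 1 to 4 and 51666, 12746, 12131 and 41956 CPM in sIVs libraries 2 to 5 (CPM, counts scaled to a common library size by trimmed mean of M values). By this sum, sIVs libraries 3 and 4 stand apart from the other 6 libraries, and results are given below with and without them. A chi-square per gene measured how far the counts of 2 libraries differed. For sIVs library 2 it was 3.65, 4.73, 5.54 and 12.9 against PBS libraries 1 to 4. PBS library 4 had 11.1, 12.9 and 8.78 against PBS libraries 1 to 3. The value for sIVs library 5 was 14.2 or more against every other library. By this measure library 2 was thus as near to PBS libraries as PBS library 4 was. Cone markers (17 genes) summed to 2853 to 3426 CPM in the PBS libraries and 1818 to 2695 CPM in the sIVs libraries, and 20 gliosis genes to 1098 to 2096 CPM in the PBS libraries and 2191 to 4509 CPM in the sIVs libraries; neither pair of groups overlapped (exact permutation p = 0.0286 each, the smallest this design can give). Ganglion cell markers (10 genes), at 1171 to 1521 CPM in the PBS libraries and 1085 to 1153 CPM in the sIVs libraries, did not overlap either (exact permutation p = 0.0286). Microglial markers (16 genes) summed to 228 to 369 CPM in the PBS libraries and 228 to 715 CPM in the sIVs libraries. Bipolar markers (13 genes) summed to 2083 to 2327 CPM in the PBS libraries and 2007 to 2549.6 CPM in the sIVs libraries, and lens markers did not exceed 1.88 CPM in any library. Rod, microglial and bipolar sums gave exact permutation p of 0.114, 0.4 and 0.571. Sums of amacrine, Mueller glia, horizontal, pigment epithelium and blood markers gave 0.314, 0.371, 0.886, 0.6 and 0.171 by the same test. These p-values were not adjusted for the number of lists, which were chosen with earlier results of these data known. The part of these cell type differences in the lincRNA results was not tested, and in bulk tissue fewer cells of a type and less RNA per cell cannot be told apart.

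LincRNAs are transcribed, usually spliced and often polyadenylated RNAs that encode no known protein. Some are structural parts of nuclear bodies, some hold microRNA hairpins or small nucleolar RNAs within their introns or exons, and some lie next to developmental genes in the tissue where those genes are used. In the retina, lincRNAs are known from photoreceptors and from maturing neurons. The libraries were poly(A) selected, which matters for this class because the long isoform of Neat1 and the mature 3' end of Malat1 carry no ordinary poly(A) tail.

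MicroRNA sequences are shown first because a set of the members is known chiefly as their precursors. Of the 141 members, 13 enclosed a same-strand hairpin of the RefSeq table (GRCm38.p6). The following mature microRNAs are written 5' to 3' with the seed, bases 2 to 8, in capitals. The members Gm3764 and C130071C03Rik both enclose a copy of miR-9, and their seeds are therefore the same. Mir17hg holds the miR-17 to miR-92a cluster, in which miR-17-5p and miR-20a-5p share 1 seed and miR-19a-3p and miR-19b-3p share another. Mir670hg encloses miR-129, C78859 miR-138, Rmst miR-135a, 6720427I07Rik let-7d and E130102H24Rik miR-101a. Mir124a-1hg and Mir124-2hg are the hosts of miR-124.
miR-9-5p: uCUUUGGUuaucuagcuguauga
miR-9-3p: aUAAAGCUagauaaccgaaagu
miR-17-5p: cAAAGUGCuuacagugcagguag
miR-20a-5p: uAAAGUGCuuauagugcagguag
miR-18a-5p: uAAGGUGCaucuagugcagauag
miR-19a-3p: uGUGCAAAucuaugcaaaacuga
miR-19b-3p: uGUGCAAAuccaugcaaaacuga
miR-92a-3p: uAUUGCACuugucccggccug
miR-129-5p: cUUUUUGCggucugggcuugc
miR-138-5p: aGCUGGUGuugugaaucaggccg
miR-135a-5p: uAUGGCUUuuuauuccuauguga
let-7d-5p: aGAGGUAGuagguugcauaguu
miR-101a-3p: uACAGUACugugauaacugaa

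A second pair of sequences shows repeats within abundant members. The transcript of 2900097C17Rik, the mouse Norad gene, binds Pumilio proteins. Its 4915-base transcript held 11 matches to TGTANATA on the transcript strand, or 2.24 per kilobase, the highest density when the longest transcript of each of the 141 members was searched (GENCODE M21, GRCm38). A match was present in 44 of the 141 transcripts (31.2%) and in 1.62% of 3508 windows of 120 bases cut from them. Miat, known as Gomafu, carries repeats of TACTAAC, a sequence like the intron branch point. Miat held 6 such matches in a transcript of 9163 bases, or 0.65 per kilobase. That density was not the highest, since Gm15706 had 1.11 from 1 match and 4930570G19Rik had 0.64 from 2. Any match was present in 10 of 141 transcripts (7.09%) and in 0.399% of the 120-base windows. Each window below was picked as the 120 bases of its transcript with the most matches. The window shares above therefore do not measure how unusual it is. The windows have the matches in capitals, and lie at chr2:156391349-156391468 and chr5:112216762-112216881, both on the minus strand.
2900097C17Rik: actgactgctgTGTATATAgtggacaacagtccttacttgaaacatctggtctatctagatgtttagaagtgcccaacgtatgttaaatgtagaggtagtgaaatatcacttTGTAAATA
Miat: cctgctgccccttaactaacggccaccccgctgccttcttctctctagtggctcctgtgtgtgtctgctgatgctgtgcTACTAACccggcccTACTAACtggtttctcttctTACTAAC

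Among the 141 members the estimates lay mostly below PBS. The log2 fold change, sIVs against PBS, was negative for 105 members (74.5%) and positive for 36, with a median of -0.14 and quartiles of -0.32 and 0.00. Over all 17725 genes tested 51.0% were negative and the median was -0.01, with quartiles of -0.14 and 0.15. The 473 tested lincRNAs under the count threshold had a median of -0.08, with 56.9% negative. The 14509 protein-coding genes had a median of 0.00 and 48.9% negative. With sIVs libraries 3 and 4 left out, the members' median was -0.04 and 88 were negative. Scaling by library totals in place of trimmed means shifted the median of all genes to 0.07, and 86 members were then negative, against 36.03% of all genes.

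No member passed the edgeR test (quasi-likelihood, Benjamini-Hochberg adjustment over all genes, threshold 0.05), where 0% of all genes passed in either direction. The lowest adjusted p among members was 0.136, for Neat1. At an unadjusted p under 0.05 there were 7 higher members (9.61% of all genes) and 20 lower (5.63% of all genes). DESeq2 called 4 members higher, Neat1, Gm3764, 2900052N01Rik and Gm26917, against 2.43% of the 19181 genes it gave an adjusted p. It called 5 lower, BC055402, 3222401L13Rik, A330074K22Rik, C130083M11Rik and 5330413P13Rik, against 0.438% of those 19181 genes. Voom from limma called 0 members. Without the filter on low counts edgeR called 2 higher, Neat1 and Gm3764, and 0 lower. The shares of the 33760 genes then tested, many of them with few counts, were 0.43% and 0.0207%. When sIVs library 2 was left out, edgeR called the same 4 higher members as DESeq2 and 17 lower ones. The shares of the 17999 genes then tested were 4.83% and 2.56%. Leaving out any other single library gave 0 calls among members. The 17 lower members included Rncr4, F630040K05Rik, A930006I01Rik and Gm20139. Every sIVs library lay above every PBS library for 4 members (2.84%, against 4.42% of all genes), namely Neat1, Gm3764, 2900052N01Rik and 1810058I24Rik. Every sIVs library lay below every PBS library for 7 (4.96%, against 3.36%), namely BC055402, 3222401L13Rik, A930007I19Rik, C130083M11Rik, Dubr, A330074K22Rik and 2810455O05Rik. Both shares are near those of all genes. Without PBS library 1 the count of higher members was 7 (4.96%, against 6.17% of all genes) and without PBS library 4 it was 8 (5.67%, against 6.02%). Without sIVs library 2 there were 8 higher (5.67%, against 11.3%) and 37 lower (26.2%, against 10.1%). Without sIVs libraries 3 and 4 there were 15 higher (10.6%, against 11.3%) and 13 lower (9.22%, against 11.1%).

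**Figure D1:**
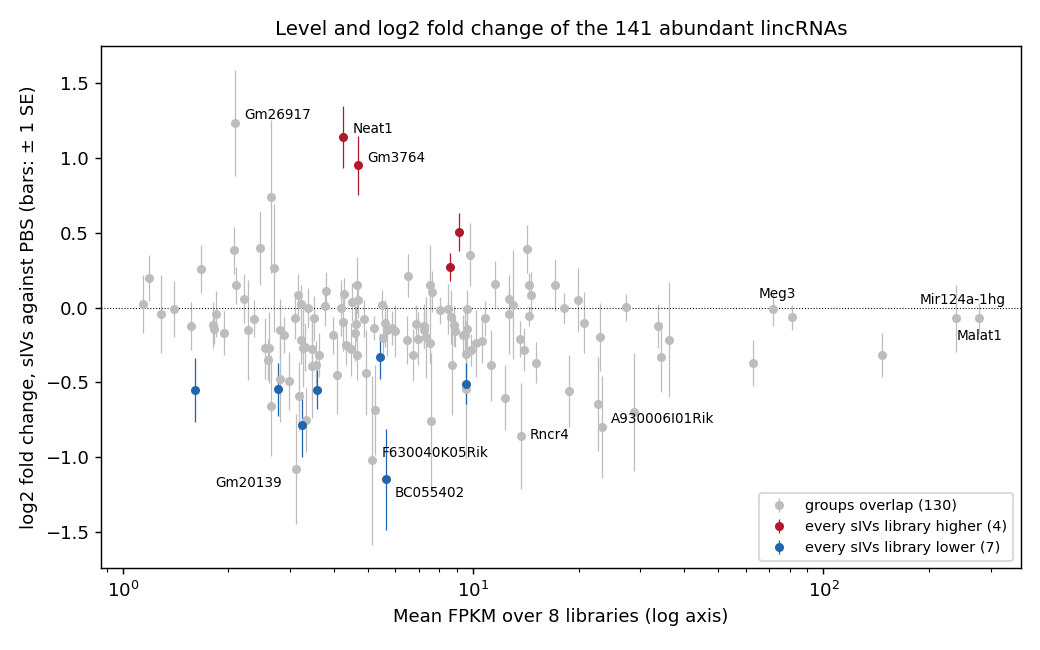
Each point is 1 of the 141 abundant lincRNAs, with its mean FPKM over 8 libraries on a log axis and its log2 fold change, sIVs against PBS, with bars of 1 SE. Red points are the 4 and blue points the 7 members whose groups do not overlap; Malat1, Meg3 and Mir124a-1hg sit near 0, and Gm26917, at 1.24, is the highest.

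The 4 sIVs libraries were unlike each other. Against the PBS range, 20 members were below it in sIVs library 2, 77 in library 3, 85 in library 4 and 62 in library 5. The corresponding shares of members were 14.2%, 54.6%, 60.3% and 44.0%, against 21.2%, 32.5%, 33.1% and 29.1% of all genes. Above the PBS range were 35, 19, 16 and 29 members, or 24.8%, 13.5%, 11.3% and 20.6%, against 21.7%, 31.8%, 32.4% and 29.8% of all genes. The median log2 ratio of members to the PBS mean was 0.04, -0.28, -0.37 and -0.10 in the 4 libraries. A total of 70 members (49.6%) were below PBS in both libraries 3 and 4, compared with 25.2% of all genes, and 12 (8.51%) were above it in both, compared with 24.8%. Library 2 had 1 member lower by 2-fold or more and libraries 3 and 4 had 21 each, while library 5 had 3. Members varied little among the PBS libraries, with a median coefficient of variation of 10.8%, and more among the sIVs libraries, at 20.2%.

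**Figure D2:**
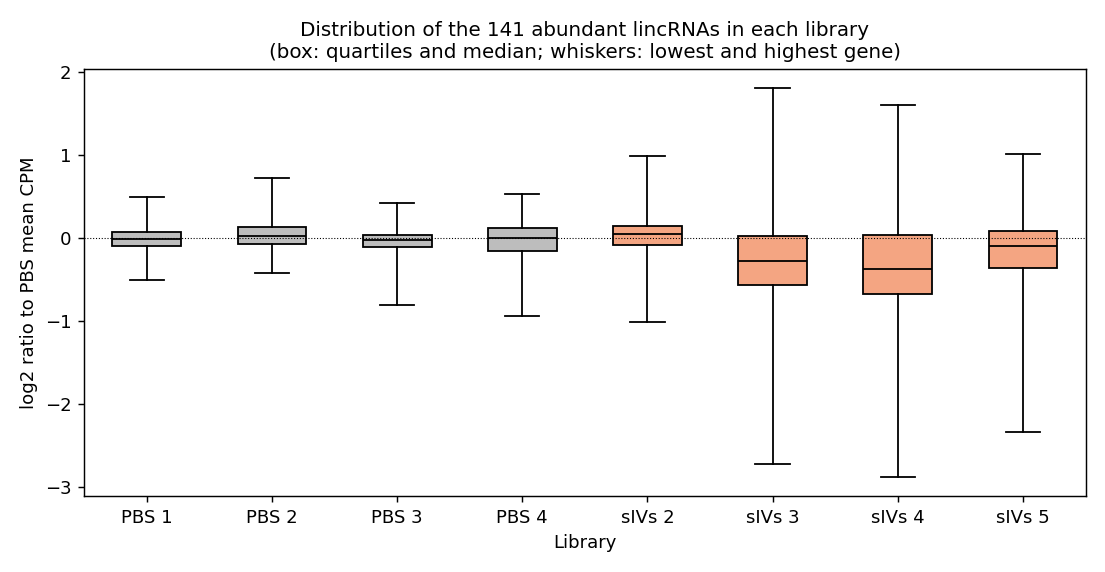
Boxes show the log2 ratio of each member's CPM to its PBS mean in each library, with the median and quartiles, and whiskers reach the lowest and highest of the 141 members. Medians of sIVs libraries 3 and 4 are -0.28 and -0.37, and that of sIVs library 2 is 0.04.

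By level per length, Malat1 led at 277 ± 21.2 FPKM (SD, n = 8), followed by Mir124a-1hg at 239 ± 56.4 FPKM, Mir124-2hg at 146 ± 25.9 FPKM, 2900097C17Rik (Norad) at 81.4 ± 5.33 FPKM and Meg3 at 71.7 ± 6.25 FPKM. The SDs of the first and second overlap, and so do those of Norad and Meg3, while the members' median was 5.54. The same 8 libraries gave both values of each pair, and differences within a library were not compared. Next came 1700020I14Rik at 63.0 ± 12.6 FPKM, Gm10076 at 36.3 ± 16.2 FPKM, A930003A15Rik at 34.4 ± 8.92 FPKM, Gm14268 at 33.7 ± 5.27 FPKM and A330094K24Rik at 28.8 ± 12.3 FPKM; the SDs of the last 4 overlap. All 141 members spanned 1.14 to 277 FPKM, and their lengths 378 to 20771 bases.

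Neat1 and Malat1 are neighbours on chromosome 19 and structural RNAs of different nuclear bodies. Neat1 is the scaffold of paraspeckles, and Malat1 is held in nuclear speckles. Neat1 (chr19:5824708-5845478, minus strand) measured 56.5, 66.1, 56.4 and 42.5 CPM in PBS libraries 1 to 4 and 78.4, 151, 147 and 112 CPM in sIVs libraries 2 to 5. Every sIVs library was above every PBS library, and libraries 3 and 4 were highest. Group means were 55.3 ± 9.71 CPM (SD) over the 4 PBS libraries and 122 ± 33.9 CPM over the 4 sIVs libraries, and the log2 fold change was 1.14 ± 0.21 (SE; adjusted p = 0.136, edgeR), or 0.78 without libraries 3 and 4. Counts at gene level do not separate its short and long isoforms. Malat1 (chr19:5795690-5802672, minus strand) measured 1965, 2215, 1886 and 1894 CPM in PBS libraries 1 to 4 and 1916, 2008, 1682 and 1976 CPM in sIVs libraries 2 to 5. Its groups overlapped throughout, with sIVs library 4 the lowest and PBS library 2 the highest, and its log2 fold change was -0.07 ± 0.10 (SE; adjusted p = 0.779, edgeR), or -0.03 without libraries 3 and 4. The nearest tested coding gene to Neat1, Frmd8, measured 18.03, 20.2, 14.9 and 13.9 CPM in PBS libraries 1 to 4 and 18.9, 33.8, 32.1 and 30.2 CPM in sIVs libraries 2 to 5, with a log2 fold change of 0.78 ± 0.19 (SE; adjusted p = 0.167, edgeR). Frmd8 was therefore highest in the same 3 sIVs libraries as Neat1. The 20 interferon response genes of the marker lists summed to 378 to 425 CPM in the PBS libraries and 506 to 2207 CPM in the sIVs libraries, highest in libraries 3 and 4 as well. These groups did not overlap (exact permutation p = 0.0286, not adjusted for the number of lists), and their part in the Neat1 values was not tested.

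The protein partners of these bodies were measured as well. Of 24 genes of paraspeckle proteins, 0 passed in edgeR, 8 had positive and 16 negative estimates, and the median was -0.02. Of these 24, 1 was lower in every sIVs library, against 3.36% of all genes. Of 25 genes of nuclear speckle proteins, 0 passed, 7 were positive and 18 negative, with a median of -0.02. Summed levels were 4154 to 4253 CPM in the PBS libraries and 3937 to 4421 CPM in the sIVs libraries for the former, and 6703 to 7213 CPM in the PBS libraries and 6024 to 7317 CPM in the sIVs libraries for the latter.

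Other nuclear and structural lincRNAs were close to 0. 2900097C17Rik (Norad) measured 395, 398, 407 and 440.0 CPM in PBS libraries 1 to 4 and 395, 404, 422 and 347 CPM in sIVs libraries 2 to 5. The groups overlapped, with a log2 fold change of -0.06 ± 0.08, or -0.15 without libraries 3 and 4. Miat measured 36.1, 48.2, 38.7 and 48.5 CPM in PBS libraries 1 to 4 and 40.98, 51.9, 44.3 and 40.6 CPM in sIVs libraries 2 to 5, with no order between the groups and a log2 fold change of 0.05 ± 0.12. Rmst, a partner of Sox2 in neurogenesis, measured 8.18, 7.82, 8.26 and 8.68 CPM in PBS libraries 1 to 4 and 7.30, 11.8, 9.67 and 9.07 CPM in sIVs libraries 2 to 5. For Rmst, sIVs libraries 3, 4 and 5 were above the PBS range and library 2 below it, and its log2 fold change was 0.20 ± 0.15. Without libraries 3 and 4 the Miat and Rmst estimates were -0.07 and -0.01. Meg3, a maternally expressed RNA of the imprinted Dlk1-Dio3 region, measured 1227, 1410.1, 1279 and 1308 CPM in PBS libraries 1 to 4 and 1230.0, 1478, 1362 and 1116 CPM in sIVs libraries 2 to 5. Mirg, a microRNA host in the same region, measured 6.63, 6.80, 7.70 and 12.1 CPM in PBS libraries 1 to 4 and 8.503, 8.95, 8.23 and 8.05 CPM in sIVs libraries 2 to 5. For Meg3 the sIVs library 3 was the highest and library 5 the lowest; for Mirg all 4 sIVs libraries sat inside the PBS range. Their log2 fold changes were -0.01 and 0.02, or -0.16 and -0.0030 without libraries 3 and 4. Scaled by library totals, the estimates of Malat1, Norad and Meg3 turned positive, at 0.0036, 0.015 and 0.071. Of 8 tested genes on the list of nuclear-body lncRNAs, 3 were positive and 5 negative, and 0 passed in edgeR. Of the 6 tested genes fixed as the Dlk1-Dio3 region list, 3 were positive and 3 negative, and 0 passed in edgeR.

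MicroRNA hosts gave unlike values, even where the enclosed microRNAs share a seed. Gm3764 (chr3:88206813-88229959, plus strand), which encloses the miR-9-1 hairpin whose mature arms are printed above, measured 16.7, 18.5, 17.01 and 22.4 CPM in PBS libraries 1 to 4 and 22.9, 47.4, 37.8 and 36.3 CPM in sIVs libraries 2 to 5. All sIVs libraries were higher than all PBS libraries, library 2 by the smallest margin. The log2 fold change was 0.95 ± 0.20 (SE; adjusted p = 0.158, edgeR) from group means of 18.7 ± 2.62 CPM (SD) over the 4 PBS libraries and 36.1 ± 10.1 CPM over the 4 sIVs libraries, and 0.67 without libraries 3 and 4. C130071C03Rik (chr13:83721381-83884194, plus strand), the host of miR-9-2, measured 82.0, 81.1, 85.2 and 86.8 CPM in PBS libraries 1 to 4 and 78.5, 84.0, 85.7 and 73.9 CPM in sIVs libraries 2 to 5. Here the groups overlapped and the log2 fold change was -0.06 ± 0.07 (SE; adjusted p = 0.719, edgeR), or -0.14 without libraries 3 and 4. The difference between the pair was not tested. Whether mature miR-9 differed was not measured, because these were poly(A)-selected libraries of longer fragments.

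The hosts of miR-124, an abundant microRNA of neurons, differed in how the libraries were ordered. Mir124a-1hg (chr14:64587331-64593961, plus strand), known as Rncr3 and needed for cone survival in mice, measured 1211, 1250.3, 1213 and 1036 CPM in PBS libraries 1 to 4 and 1389, 817, 743 and 1533 CPM in sIVs libraries 2 to 5. The sIVs libraries lay on both sides of PBS, with libraries 2 and 5 above and 3 and 4 below. Its log2 fold change was -0.07 ± 0.22 (SE; adjusted p = 0.906, edgeR), and 0.31 without libraries 3 and 4. Mir124-2hg (chr3:17789921-17808970, plus strand), which overlaps Gm23441 on the opposite strand, measured 939, 948, 993 and 1039.5 CPM in PBS libraries 1 to 4 and 995, 659.6, 630.4 and 862 CPM in sIVs libraries 2 to 5. Libraries 3, 4 and 5 were below PBS and library 2 was inside its range, giving -0.32 ± 0.15 (SE; adjusted p = 0.341, edgeR) on the log2 scale, and -0.08 without libraries 3 and 4. Mir670hg measured 13.5, 11.5, 16.6 and 15.9 CPM in PBS libraries 1 to 4 and 13.5, 9.63, 9.83 and 13.1 CPM in sIVs libraries 2 to 5. Mir17hg measured 8.24, 9.24, 8.88 and 7.61 CPM in PBS libraries 1 to 4 and 9.04, 4.04, 4.53 and 13.1 CPM in sIVs libraries 2 to 5. Both were below PBS in libraries 3 and 4, but Mir17hg was above PBS in library 5. Their log2 fold changes were -0.32 ± 0.16 and -0.15 ± 0.34, and -0.11 and 0.38 without libraries 3 and 4. C78859, host of miR-138, measured 7.73, 10.9, 9.02 and 8.54 CPM in PBS libraries 1 to 4 and 10.8, 12.6, 11.7 and 8.41 CPM in sIVs libraries 2 to 5. E130102H24Rik, host of miR-101a, measured 17.2, 15.5, 15.5 and 18.6 CPM in PBS libraries 1 to 4 and 16.7, 15.0, 16.8 and 18.1 CPM in sIVs libraries 2 to 5. 6720427I07Rik, host of let-7d, measured 22.4, 25.01, 20.1 and 25.1 CPM in PBS libraries 1 to 4 and 24.8, 16.8, 15.7 and 24.5 CPM in sIVs libraries 2 to 5. All 3 of these overlapped between groups, with log2 fold changes of 0.26, -0.004 and -0.18; they were chosen for the hairpins. Without libraries 3 and 4 these were 0.08, 0.06 and 0.09, the last 2 with the sign changed. Of 10 tested genes on the microRNA host list, 5 were positive, 5 negative and 0 passed in edgeR.

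Hosts of small nucleolar RNAs, which guide modification of ribosomal RNA, were above every PBS library in sIVs library 5 for 4 of the 5 members on the list. In that library 29.8% of all genes were above every PBS library. Snhg12 measured 20.2, 22.8, 20.5 and 19.1 CPM in PBS libraries 1 to 4 and 30.1, 20.1, 18.01 and 37.4 CPM in sIVs libraries 2 to 5. Libraries 2 and 5 were above every PBS library, while library 3 was inside and library 4 below the PBS range. Its log2 fold change was 0.35 ± 0.21 (SE; adjusted p = 0.455, edgeR), and 0.71 without libraries 3 and 4. Snhg20 measured 42.6, 33.2, 41.2 and 42.5 CPM in PBS libraries 1 to 4 and 45.9, 31.9, 37.7 and 53.7 CPM in sIVs libraries 2 to 5. Snhg6, which overlaps Mcmdc2 on the opposite strand, measured 18.4, 12.6, 15.0 and 13.1 CPM in PBS libraries 1 to 4 and 16.2, 9.38, 10.00 and 21.7 CPM in sIVs libraries 2 to 5. Epb41l4aos measured 9.21, 8.92, 8.40 and 7.11 CPM in PBS libraries 1 to 4 and 9.44, 6.65, 6.46 and 12.3 CPM in sIVs libraries 2 to 5. All 3 peaked in sIVs library 5 and had their lowest value in sIVs library 3 or 4. Snhg18 measured 6.95, 5.45, 7.08 and 6.90 CPM in PBS libraries 1 to 4 and 8.70, 8.33, 7.13 and 5.13 CPM in sIVs libraries 2 to 5, where sIVs library 5 was instead the lowest. The log2 fold changes were 0.09 for Snhg20, -0.05 for Snhg6, 0.05 for Epb41l4aos and 0.15 for Snhg18. Without sIVs libraries 3 and 4 they were 0.32, 0.36, 0.37 and 0.06, so that Snhg6 changed sign. Of 18 tested host genes on the list, 5 of them members, 15 had positive and 3 negative estimates, 0 passed in edgeR, and the median was 0.10. Over all 17725 genes tested, 8691 were positive. In sIVs library 5, 13 of the 18 were above PBS, against 29.8% of all genes. Snhg10, Snhg11 and Tmem107 were inside the PBS range there and Snhg14 and Snhg18 below it. Outside the members, Gas5 (0.23), Zfas1 (0.22) and Snhg4 (0.46) were among those positive on the log2 scale.

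**Figure D3:**
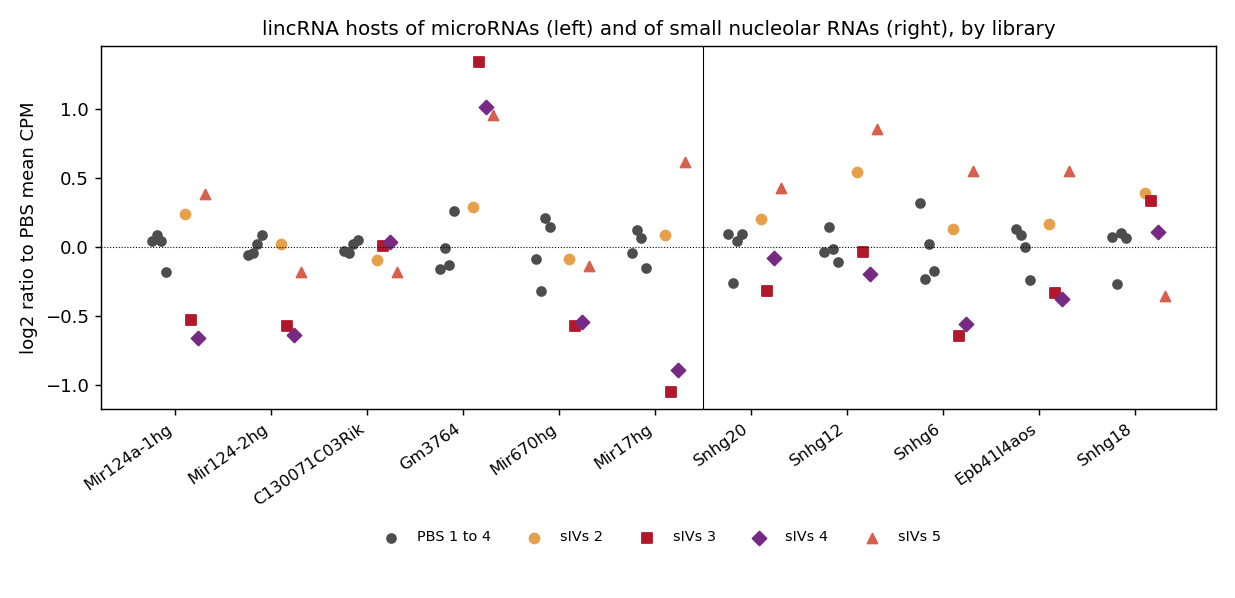
The y axis is the log2 ratio of each library's CPM to the PBS mean; grey points are PBS libraries 1 to 4 and coloured symbols the 4 sIVs libraries. Gm3764 is above PBS in all 4 sIVs libraries, whereas Mir124a-1hg, Mir17hg, Snhg20, Snhg12, Snhg6 and Epb41l4aos are highest in sIVs library 5 and lower in libraries 3 and 4 than in libraries 2 and 5.

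Among higher members outside these groups, Gm26917 had the largest estimate. Gm26917 is also the 1 member on the list of genes tied to ribosomal RNA loci. Of the 3 tested genes on that list, 1 was positive and 2 negative, and 0 passed in edgeR. Its longest transcript was 69.1% G and C bases, the highest share among the members. The part of ribosomal RNA reads in the Gm26917 values was not tested. Gm26917 (chr17:39843013-39846341, plus strand) measured 3.48, 4.23, 3.68 and 5.34 CPM in PBS libraries 1 to 4 and 4.35, 14.9, 12.9 and 7.16 CPM in sIVs libraries 2 to 5. Libraries 3, 4 and 5 were above PBS and library 2 was inside the PBS range. The log2 fold change was 1.24 ± 0.35 (SE; adjusted p = 0.190, edgeR), which is 0.47 without libraries 3 and 4. 2900052N01Rik (chr9:46913493-46927366, plus strand) measured 27.2, 25.7, 26.1 and 18.9 CPM in PBS libraries 1 to 4 and 30.9, 35.2, 33.0 and 39.9 CPM in sIVs libraries 2 to 5. Its sIVs libraries were all higher, library 5 the highest, and its log2 fold change of 0.50 ± 0.13 (SE; adjusted p = 0.170, edgeR) was 0.53 without libraries 3 and 4. Its nearest tested coding gene, Cadm1, starts 616680 bases away and had -0.08. 1810058I24Rik measured 22.9, 21.999, 20.9 and 21.5 CPM in PBS libraries 1 to 4 and 24.2, 29.1, 28.1 and 23.9 CPM in sIVs libraries 2 to 5. Its groups did not overlap, although the gap between PBS library 1 and sIVs library 5 was small; the log2 fold change was 0.27 ± 0.09, or 0.14 without libraries 3 and 4. Gm28151, Gm45605 and Tmem250-ps, the other 3 members named as higher, stood at 0.39, 0.38 and 0.15 on the log2 scale with overlapping groups, and at 0.46, 0.11 and 0.15 without libraries 3 and 4. Gm28151 lies within Slc39a10 on the same strand, and Tmem250-ps overlaps 1810012K08Rik, so that reads may be split between them.

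**Figure D4:**
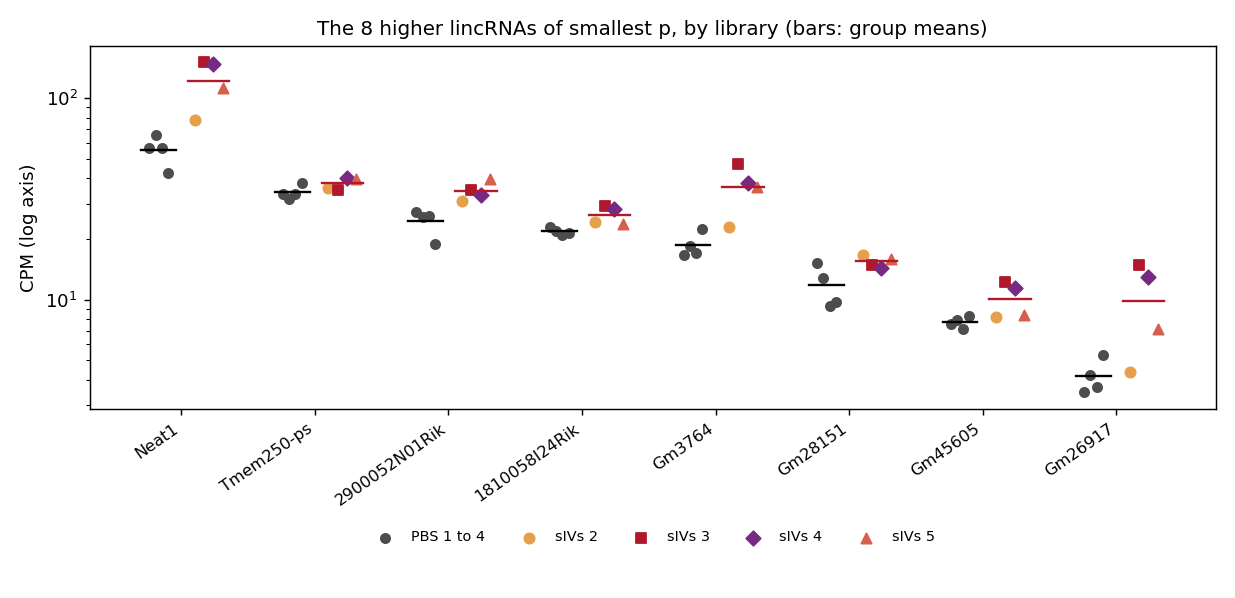
CPM on a log axis for the 8 higher members of smallest p, with grey points for PBS libraries 1 to 4, symbols for sIVs libraries 2 to 5 and bars at group means. For Neat1, Gm3764, 2900052N01Rik and 1810058I24Rik all sIVs points are above the PBS points, and sIVs library 2 is nearest to PBS in the first 3.

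Lower members are grouped here by whether or not sIVs library 2 lay below the PBS range. BC055402 (chr1:57200645-57214993, minus strand) measured 19.1, 21.3, 34.6 and 27.9 CPM in PBS libraries 1 to 4 and 12.7, 10.3, 18.3 and 5.01 CPM in sIVs libraries 2 to 5. All sIVs libraries were below all PBS libraries and library 5 was the lowest. Its log2 fold change was -1.15 ± 0.34 (SE; adjusted p = 0.194, edgeR), and -1.55 without libraries 3 and 4. C130083M11Rik (chr5:52199984-52216434, minus strand), which overlaps 9230114K14Rik on the opposite strand, measured 9.08, 9.17, 9.44 and 7.76 CPM in PBS libraries 1 to 4 and 6.16, 6.03, 6.74 and 5.31 CPM in sIVs libraries 2 to 5. The groups were separate and even, with -0.55 ± 0.13 (SE; adjusted p = 0.167, edgeR) on the log2 scale and -0.63 without libraries 3 and 4. A330074K22Rik (chr8:120204434-120228230, minus strand) measured 27.9, 27.3, 30.8 and 25.97 CPM in PBS libraries 1 to 4 and 25.4, 19.8, 16.4 and 17.4 CPM in sIVs libraries 2 to 5. 3222401L13Rik (chr18:37655451-37661742, plus strand) measured 23.2, 29.6, 25.96 and 24.97 CPM in PBS libraries 1 to 4 and 21.6, 11.2, 10.3 and 17.2 CPM in sIVs libraries 2 to 5. In both, sIVs library 2 was just below the PBS range. Log2 fold changes were -0.51 ± 0.14 (SE; adjusted p = 0.180, edgeR) and -0.78 ± 0.22 (SE; adjusted p = 0.185, edgeR), or -0.39 and -0.42 without libraries 3 and 4. Dubr, a lincRNA known from muscle precursor differentiation, measured 16.7, 16.8, 13.4 and 14.8 CPM in PBS libraries 1 to 4 and 13.2, 12.2, 7.46 and 9.49 CPM in sIVs libraries 2 to 5. Its groups did not overlap, with library 4 the lowest and a log2 fold change of -0.55 ± 0.18. A930007I19Rik and 2810455O05Rik, also below PBS throughout, had log2 fold changes of -0.55 and -0.33, or -0.22 and -0.41 without libraries 3 and 4; they and the next members named outside the rule were chosen after their values were seen.

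Other lower members were below the PBS range in sIVs libraries 3, 4 and 5, with library 2 inside or above it. The division is narrow, because library 2 was only just inside for 5330413P13Rik and only just below for 3222401L13Rik. Gm20139 (chr10:19141751-19206702, plus strand) measured 18.5, 22.3, 22.9 and 31.6 CPM in PBS libraries 1 to 4 and 22.4, 8.01, 6.13 and 8.83 CPM in sIVs libraries 2 to 5. Library 2 was inside the PBS range while the other 3 sIVs libraries were far below it, and the log2 fold change of -1.08 ± 0.37 (SE; adjusted p = 0.239, edgeR) became -0.62 without libraries 3 and 4. 5330413P13Rik measured 26.9, 23.99, 22.2 and 28.1 CPM in PBS libraries 1 to 4 and 22.4, 12.7, 10.00 and 15.1 CPM in sIVs libraries 2 to 5. Gm28875 measured 16.996, 15.8, 15.96 and 21.9 CPM in PBS libraries 1 to 4 and 16.1, 8.14, 9.004 and 13.4 CPM in sIVs libraries 2 to 5. In both, libraries 3, 4 and 5 lay below PBS, and the log2 fold changes of -0.75 and -0.60 became -0.44 and -0.27 without libraries 3 and 4. F630040K05Rik measured 35.9, 36.6, 36.7 and 38.2 CPM in PBS libraries 1 to 4 and 41.5, 5.47, 4.92 and 21.1 CPM in sIVs libraries 2 to 5. A930006I01Rik measured 68.8, 58.4, 62.1 and 74.8 CPM in PBS libraries 1 to 4 and 68.6, 20.9, 20.6 and 42.3 CPM in sIVs libraries 2 to 5. For F630040K05Rik the sIVs library 2 was above PBS, libraries 3 and 4 were the lowest, and library 5 was between; the log2 fold changes, -1.02 ± 0.56 and -0.80 ± 0.34, were -0.24 and -0.26 without libraries 3 and 4. The rod marker sum had the same order among the sIVs libraries, and the part of rods in these values was not tested.

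**Figure D5:**
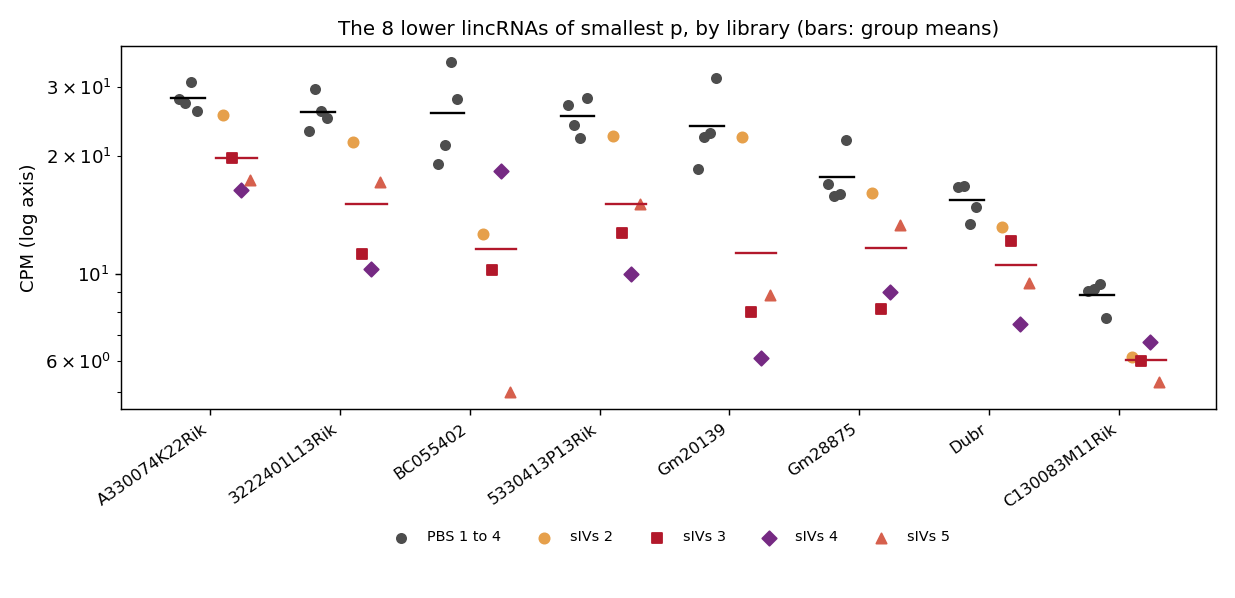
CPM on a log axis for the 8 lower members of smallest p, with grey points for PBS libraries 1 to 4, symbols for sIVs libraries 2 to 5 and bars at group means. BC055402, C130083M11Rik, A330074K22Rik, 3222401L13Rik and Dubr show no overlap, while sIVs library 2 of 5330413P13Rik, Gm20139 and Gm28875 sits inside the PBS range.

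Of the 7 members on the retinal lincRNA and antisense list, 2, Rncr4 and Otx2os1, were below PBS in both libraries 3 and 4. Neat1 and Rmst were above it in both, while Meg3 and Miat were above it in library 3 and inside it in library 4, and C130071C03Rik was inside it in both. Rncr4 (chr6:30172893-30175126, plus strand), a photoreceptor lincRNA transcribed opposite to the miR-183/96/182 cluster, measured 40.4, 35.3, 46.9 and 35.4 CPM in PBS libraries 1 to 4 and 37.7, 11.8, 10.8 and 27.2 CPM in sIVs libraries 2 to 5. sIVs library 2 was inside the PBS range, library 5 was lower, and libraries 3 and 4 were lowest. Its log2 fold change was -0.86 ± 0.36 (SE; adjusted p = 0.300, edgeR), and -0.29 without libraries 3 and 4. Otx2os1, transcribed from the strand opposite Otx2, a transcription factor of photoreceptors and bipolar cells, measured 26.6, 26.7, 25.7 and 26.7 CPM in PBS libraries 1 to 4 and 27.7, 19.4, 18.4 and 27.4 CPM in sIVs libraries 2 to 5. Libraries 3 and 4 were below PBS and libraries 2 and 5 slightly above, giving -0.19 ± 0.14, or 0.06 without libraries 3 and 4. Otx2 itself measured 248, 245, 235 and 221 CPM in PBS libraries 1 to 4 and 259, 191, 186 and 241 CPM in sIVs libraries 2 to 5. Otx2 was thus lowest in the same libraries, at -0.11 ± 0.11 (SE; adjusted p = 0.664, edgeR), and reads of the pair cannot be assigned where strand was not used in counting. Of 15 tested genes on the retinal lincRNA and antisense list, 7 of them members, 6 were positive and 9 negative, and 0 passed in edgeR. Of these 15, 1 was higher and 1 lower in every sIVs library, against 4.42% and 3.36% of all genes.

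None of the members named only for their level passed the edgeR test. 1700020I14Rik measured 583, 623, 595 and 565 CPM in PBS libraries 1 to 4 and 610.1, 374, 368 and 479 CPM in sIVs libraries 2 to 5. A330094K24Rik measured 37.8, 29.6, 38.4 and 40.98 CPM in PBS libraries 1 to 4 and 40.7, 11.3, 9.78 and 28.9 CPM in sIVs libraries 2 to 5. Both had libraries 3 and 4 lowest, with log2 fold changes of -0.37 ± 0.15 and -0.70 ± 0.40, or -0.12 and -0.08 without them. A930003A15Rik, Gm14268 and Gm10076 had -0.33, -0.12 and -0.21 on the log2 scale, and 0.08, 0.08 and -0.32 without libraries 3 and 4. Gm10076 turned to 0.14 without PBS library 2. Gm26809, on a list of genes and lncRNAs tied to stress and damage, measured 8.82, 11.4, 9.86 and 11.2 CPM in PBS libraries 1 to 4 and 10.98, 7.02, 9.56 and 8.05 CPM in sIVs libraries 2 to 5, with overlapping groups and a log2 fold change of -0.22, or -0.12 without libraries 3 and 4. Of the 11 tested genes on that list, 7 were positive and 0 passed in edgeR. Of these 11, 3 were higher and 1 lower in every sIVs library, against 4.42% and 3.36% of all genes. Non-members on the list included Cdkn2b (2.32 ± 0.46 on the log2 scale, SE), Pvt1 (1.01 ± 0.43), Mir22hg (0.49 ± 0.13) and Lockd (-1.10 ± 0.33). Cdkn2b, Pvt1 and Lockd were low, with PBS means of 0.46, 0.64 and 1.93 CPM, and Mir22hg had 11.1 CPM.

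Where a coding gene starts within 5000 bases of a member, 41 members were concerned; 34 lay on the opposite strand and 30 had the same sign of estimate. Within 50000 bases there were 93, with 64 of the same sign. The share of the same sign among other neighbouring genes was not computed. The counts therefore do not show a trait particular to the members, and overlapping pairs may share reads. Pcdhga1, which starts 6342 bases from 3222401L13Rik, measured 12.4, 10.9, 10.6 and 10.8 CPM in PBS libraries 1 to 4 and 8.84, 7.70, 6.74 and 7.22 CPM in sIVs libraries 2 to 5, lower in every sIVs library, with -0.56 ± 0.13 (SE; adjusted p = 0.161, edgeR) on the log2 scale. The nearest tested coding gene to Gm20139, with its start 126094 bases away, was Tnfaip3, which restrains NF-kB signalling. Tnfaip3 measured 224, 208, 229.6 and 249 CPM in PBS libraries 1 to 4 and 232, 78.0, 70.3 and 158 CPM in sIVs libraries 2 to 5, with the same order among the sIVs libraries. Gse1 starts 226 bases from A330074K22Rik on the opposite strand and measured 135, 142, 136 and 125 CPM in PBS libraries 1 to 4 and 123, 114, 105 and 145 CPM in sIVs libraries 2 to 5, overlapping between groups. Of the 141 members 33 overlapped a gene on the opposite strand and 15 on the same strand, and 97 neither.

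The promoter of A330074K22Rik is shown because the lincRNA was lower in every sIVs library and the window reaches the start of Gse1 on the other strand. RefSeq promoters (GRCm38.p6, 250 bases before to 50 after the start) matched 66 members. An AP-1 motif, TGANTCA on either strand, was in 6 of the 66 (9.09%) and in 7.81% of 32851 promoters of that length. The core of the CRX motif, TAATCC or GGATTA, was in 9 (13.6%) and 7.06% respectively. Other members lower in every sIVs library differed from A330074K22Rik here. BC055402, Dubr and A930007I19Rik had 0 matches to either motif, and C130083M11Rik had 1 AP-1 and 0 CRX core matches. The A330074K22Rik promoter (chr8:120228181-120228480, minus strand) holds 1 AP-1 and 2 CRX core matches, in capitals.
A330074K22Rik: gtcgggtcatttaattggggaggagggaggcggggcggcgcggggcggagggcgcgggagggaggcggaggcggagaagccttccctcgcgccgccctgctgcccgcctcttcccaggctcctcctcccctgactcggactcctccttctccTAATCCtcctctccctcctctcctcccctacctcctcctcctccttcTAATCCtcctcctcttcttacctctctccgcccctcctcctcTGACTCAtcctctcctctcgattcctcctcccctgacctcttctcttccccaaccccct

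Just inside the count threshold were AC154760.1, with a mean count of 101.75, and Gdap10, with 101.875. Just outside were Gm26779 at 99.875 and Gm9866 at 98.625. Gdap10 overlaps Nampt on the same strand, and its groups overlapped at -0.04 on the log2 scale, or -0.26 without libraries 3 and 4.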

How the data were processed

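Retina RNA of 8 rd10 libraries was poly(A) selected and made into dUTP strand-marked paired-end libraries, per the labels' protocols. The authors deposited whole-number gene counts, unnormalised, and FPKM values. Within a library each deposited FPKM equalled the count per length and total times a constant of 0.930 to 1.03. The build is mm10 per the submitters' processing notes. Aligner, counter, annotation and strand setting of the counting are not given in the sources used here, so members that overlap other genes are uncertain.

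Libraries were grouped by title. Counts of all genes were tested with edgeR 4.0.16 (R 4.3.3; filterByExpr, TMM, glmQLFTest on group, Benjamini-Hochberg over 17725 genes, threshold 0.05), after the script was tested on simulated data. CPM uses TMM-scaled library sizes. DESeq2 1.42.0, limma 3.58.1 (voom, and log2 FPKM with pseudocounts of 0.1 and 1), no filter, other scalings, replicate blocks and leaving libraries out were alternatives. Values of a whole library were compared by exact two-sided permutation over 70 relabellings (scipy 1.17.1). Coordinates are GRCm38; 138 of 141 members have identical coordinates in GENCODE M21.

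Named members are the 10 of highest mean FPKM, the 8 higher and 8 lower of smallest p, those on the lincRNA lists and those at the threshold. Members and lists were chosen with earlier results of these data known.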

Additional observations from a re-analysis of the deposited data

Results flagged for a closer look

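In 4 cases 1 library stood apart from the other 3 of its group, measured against that group's range, past Dixon's critical value for 4 samples. Chance alone does so in about 1 in 20 groups, and 42 named members would at that rate give some such cases. Gm20139 was 22.4 CPM in sIVs library 2 and 6.13 to 8.83 CPM in the other sIVs libraries. Snhg20 was 33.2 CPM in PBS library 2 and 41.2 to 42.6 CPM in the other PBS libraries. Snhg18 was 5.45 CPM in the same PBS library 2 and 6.90 to 7.08 CPM in the others. Otx2os1 was 25.7 CPM in PBS library 3 and 26.6 to 26.7 CPM in the others.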

How the results depend on the processing

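The median log2 fold change of the members stayed negative in every setting run, from -0.23 without sIVs library 2 to -0.04 without sIVs libraries 3 and 4. The 0 calls of edgeR became 4 higher and 5 lower with DESeq2 and 2 higher with no filter on low counts; leaving out 1 library gave 0 to 4 higher and 0 to 17 lower, with calls only when sIVs library 2 was left out. Members with every sIVs library higher numbered 8 when scaled by library totals (5.67%, against 6.49% of all genes), 15 without sIVs libraries 3 and 4 (10.6%, against 11.3%), 7 at a mean count of at least 50 (3.12%, against 4.42%), and 4 to 8 with 1 library left out (2.84% to 5.67%, against 5.22% to 11.3%). Members with every sIVs library lower numbered 13 without libraries 3 and 4 (9.22%, against 11.1%), 4 at a mean count of at least 200 (5.19%, against 3.36%), and 7 to 37 with 1 library left out (4.96% to 26.2%, against 4.25% to 10.1%); the 37, without sIVs library 2, is the highest. The causes were not tested, other than that changed thresholds alter the genes counted and left-out libraries the comparisons made.

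Estimates of some named members changed sign, from main values between -0.33 and 0.20, none of them past the threshold. Scaled by library totals, the log2 fold changes were 0.0036 for Malat1, 0.015 for 2900097C17Rik, 0.071 for Meg3, 0.021 for C130071C03Rik, 0.013 for Snhg6 and 0.038 for Gdap10. Without sIVs libraries 3 and 4 they were 0.31 for Mir124a-1hg, 0.076 for A930003A15Rik, 0.082 for Gm14268, -0.071 for Miat, 0.057 for Otx2os1, 0.36 for Snhg6, -0.0080 for Rmst, -0.0030 for Mirg and 0.38 for Mir17hg. With voom they were -0.0036 for Epb41l4aos and 0.010 for Gdap10, and on log2(FPKM + 0.1) 0.015 for Gdap10. With 1 library left out, the estimates ranged from -0.26 to 0.081 for Mir124a-1hg, -0.081 to 0.054 for Meg3, -0.54 to 0.14 for Gm10076, -0.030 to 0.12 for Miat, -0.053 to 0.20 for Snhg20, -0.32 to 0.11 for Snhg6, -0.17 to 0.17 for Epb41l4aos, -0.071 to 0.26 for Mirg, -0.54 to 0.059 for Mir17hg and -0.25 to 0.13 for Gdap10.

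The labels do not say whether equal replicate numbers mark paired samples. As deviations from group means, same-numbered libraries correlated at -0.06 to 0.055 by title and -0.075 to 0.098 by biosample number. By biosample, numbers 2 and 3 matched best with their own number and numbers 1 and 4 did not. By title none did. So few pairs cannot settle whether the samples were paired. With the replicate block, by either numbering, edgeR called 0 members, and the members' median was -0.16 by title and -0.15 by biosample. By title, the block gave 0.023 for Meg3, -0.026 for Snhg20, -0.13 for Epb41l4aos, -0.012 for Mirg and 0.16 for Gdap10, and by biosample 0.0050 for Gdap10. Members near a mean count of 100 rest on few reads, and 4 libraries a group limit what can be called.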
